A study of Mus musculus with 6 samples.

Results

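Mitochondria keep a ribosome of their own, which translates the few respiratory chain subunits encoded by mitochondrial DNA. Its protein parts are all encoded in the nucleus, made in the cytosol and imported. The Mrpl genes encode proteins named for the large subunit, which joins amino acids, and the Mrps genes proteins named for the small subunit, which reads the mRNA. In haematopoietic stem cells, mitochondrial activity is generally kept low and rises with commitment to differentiation.

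The members were all genes whose array name was Mrpl or Mrps followed by a number, which gave 77 genes (48 Mrpl and 29 Mrps) of 37074 gene names on the array. They were read by 119 probes, each 60 bases long. RefSeq lists 78 protein-coding genes with such symbols, and 77 of them were found by name.

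The samples were LSK cells (lineage-negative, Sca-1-positive, c-Kit-positive), the bone marrow fraction that holds haematopoietic stem cells and multipotent progenitors. They were sorted from C57BL/6 mice between postnatal days 6 and 8, and each group had 3 arrays. Control mice were Atg5w/w;VaviCre+, with unmodified Atg5, and Atg5f/f;Vav mice were Atg5f/f;VaviCre+, in which Cre recombinase under the Vav promoter deletes the floxed autophagy gene Atg5 in blood-forming cells. Both groups carried the Cre transgene, so that it does not distinguish them. The comparison asks how gene expression differs in LSK cells when Atg5 is deleted. How many mice gave the cells of each array is not given in the sources used here, and p-values therefore measure only the spread between these samples.

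Signal is given as log2 processed intensity relative to the 75th percentile of the array's non-control spots, so that a value of 0 is that percentile. A log2 difference is the mean of the Atg5f/f;Vav arrays minus the mean of the control arrays. Each gene is described by its tested probe with the highest mean signal. Levels of different probes are not comparable with each other, and genes are compared by their differences. Levels were also used to divide probes into bright and dim and to sum the signal of a list. Those uses are rough descriptions for that reason.

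The arrays hold 1 Atg5 probe, which starts at base 2251 of its transcript. Its log2 signal was 1.10, 0.93 and 1.06 in control and 1.46, 1.51 and 1.74 in Atg5f/f;Vav, a log2 difference of 0.54. The sources used here do not give the floxed part of Atg5, and a probe outside it does not check the genotype. Among genes of the sorting gate, Kit did not pass (log2 difference -0.38, adjusted p = 0.0561, limma), Ly6a, which encodes Sca-1, was higher by 1.57, and Procr, a stem cell surface receptor, was lower by a log2 difference of -1.56. Stromal collagen genes were high on 2 of the 3 control arrays (Col1a1 at 3.23 and 2.95) and low on control 1 (-4.14), as on all Atg5f/f;Vav arrays. Between 59.4% and 59.9% of spots were well above background on the control arrays and between 53.6% and 56.7% on the Atg5f/f;Vav arrays, and Atg5f/f;Vav 3 had the lowest share. The part of this difference in the results was not tested.

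Nearly all mitochondrial ribosome genes had more signal in Atg5f/f;Vav LSK cells. Of the 77 genes, 72 rose, 0 fell and 5 did not pass (limma, Benjamini-Hochberg adjusted p under 0.05). Among the 15136 tested genes with a name in RefSeq, 21.1% were called higher and 13.5% lower. The median log2 difference of the members was 0.67, a 1.59-fold difference, and the middle of the distribution was narrow, with quartiles at 0.51 and 0.75. For comparison, the median over all RefSeq-named genes was 0.02. In a bulk sample, a change in the share of cells with high levels and a change in RNA per cell cannot be told apart.

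The calls depended on control 1 and control 2. Without control 1 or without control 2, 0 of the 77 genes passed, with smallest adjusted p-values of 0.0660 and 0.0672 by limma. An unadjusted p under 0.05 was held by 71 and 70 genes, but the share of all probes under it was not counted in these fits. Calls were few over the whole array too, at 188 probes higher and 142 lower without control 1, and 155 and 96 without control 2. With all arrays, 5540 probes were called higher and 5484 lower. Without any one of the other arrays, 55 to 66 genes passed. The median difference stayed between 0.55 and 0.72 whichever array was left out. After quantile normalisation 44 genes passed with a median of 0.41, and the methods' t-test called 0 after adjustment and 76 before it. All control arrays lay in row 1 of the single slide and all Atg5f/f;Vav arrays in row 2, so that genotype cannot be told apart from the row.

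**Figure D1:**
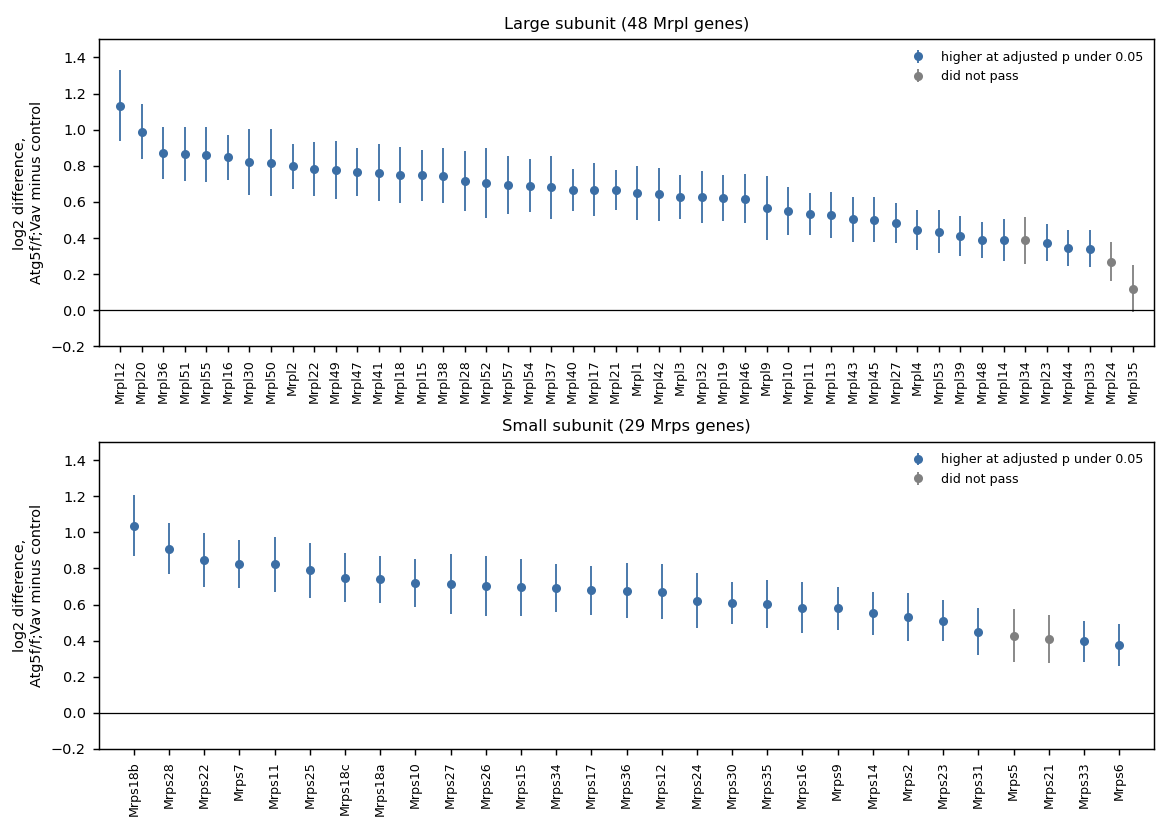
Log2 difference (Atg5f/f;Vav minus control) of each mitochondrial ribosome gene, with the limma standard error as bars, for 48 large subunit genes (top) and 29 small subunit genes (bottom). Blue points passed at an adjusted p under 0.05, grey points did not, and every point lies above 0, from 0.12 for Mrpl35 to 1.13 for Mrpl12.

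Array by array, the members moved as a block. The median deviation of the 77 genes from their control means was -0.03, -0.11 and 0.14 on control 1, 2 and 3, and 0.53, 0.56 and 0.87 on Atg5f/f;Vav 1, 2 and 3. The groups did not overlap in 76 of the 77 genes, all higher in Atg5f/f;Vav, whereas 33.2% of the RefSeq-named genes were non-overlapping in that direction. Control 3 was the highest control array for 73 of the 77 genes, and Atg5f/f;Vav 3 the highest of its group for 74. Spread between replicates was therefore shared across members, and the 77 genes are not 77 separate measurements of the groups.

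**Figure D2:**
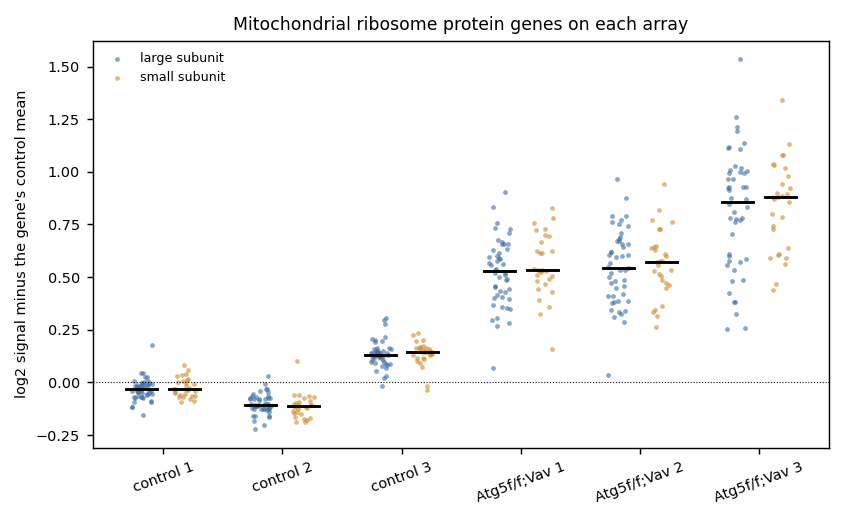
Log2 signal of each mitochondrial ribosome gene minus its control mean, on each of the 6 arrays, with large subunit genes in blue, small subunit genes in orange and the median of each as a black bar. The medians of both subunits lie between -0.11 and 0.14 on the control arrays and between 0.53 and 0.88 on the Atg5f/f;Vav arrays.

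Nearly all genes of both subunits rose. In the large subunit 45 of 48 genes rose, with a median difference of 0.66, and in the small subunit 27 of 29 rose, with a median of 0.68. The difference between the medians was -0.02 and lay between -0.06 and 0.00 with any one array left out. Array medians ran in parallel as well, at 0.53, 0.54 and 0.86 for the large and 0.53, 0.57 and 0.88 for the small subunit on Atg5f/f;Vav 1, 2 and 3. No test over genes was made, since genes are not replicates. The names are not a perfect guide to the subunits, because the proteins of Mrps18a and Mrps30 sit in the large subunit in structures of the mammalian ribosome, and that of Mrps36 is now regarded as part of the oxoglutarate dehydrogenase complex. These 3 genes rose too, with log2 differences of 0.74, 0.61 and 0.68.

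In the large subunit, Mrpl12 showed the greatest difference. It encodes the stalk protein that recruits translation factors and that also binds the mitochondrial RNA polymerase. Its log2 signal was 3.60, 3.57 and 3.90 in control and 4.59, 4.65 and 5.22 in Atg5f/f;Vav, and the groups were separated by more than the spread within either. The difference was 1.13 ± 0.20 (SE, n = 3 per group; limma adjusted p = 0.0154), or 2.19-fold. Mrpl20, an rRNA-binding protein with a bacterial counterpart, had 4.14, 4.07 and 4.35 in control and 5.02, 5.06 and 5.45 in Atg5f/f;Vav. Its difference was 0.99 (adjusted p = 0.0145, limma). Mrpl36 (0.87) also has a bacterial counterpart, while Mrpl51 (0.87) and Mrpl55 (0.86) are proteins that bacteria lack, and all 3 rose.

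At the other end of the large subunit, Mrpl35 had -3.59, -3.92 and -3.78 in control and -3.69, -3.73 and -3.50 in Atg5f/f;Vav. It was the only member whose groups overlapped, and its difference of 0.12 did not pass (adjusted p = 0.498, limma). Mrpl24, a protein of the nascent chain exit, had 3.87, 3.91 and 4.10 against 4.23, 4.25 and 4.21, and its difference of 0.27 did not pass (adjusted p = 0.0951, limma). Mrpl34 (0.39, adjusted p = 0.0554, limma) also missed the threshold. The next lowest, Mrpl33 (0.34), Mrpl44 (0.34) and Mrpl23 (0.37), rose, although Mrpl33 had a difference of -0.0025 after quantile normalisation.

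Large subunit genes with known roles lay between these ends. Mrpl3, which encodes a core protein near the peptidyl transferase centre, rose by 0.63. Mrpl11, of the region where elongation factors bind, rose by 0.54, and Mrpl45, which tethers the ribosome to the inner membrane near the exit tunnel, by 0.50. Mrpl18, which binds the structural RNA beside the central protuberance, rose by 0.75. Mrpl41, also studied as a cell death regulator, rose by 0.76. Mrpl44, which carries a ribonuclease III-like fold and is mutated in an inherited cardiomyopathy, was at 1.34, 1.33 and 1.42 in control and 1.76, 1.67 and 1.69 in Atg5f/f;Vav, a small difference with little spread.

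In the small subunit, Mrps18b led. Its log2 signal was 3.41, 3.40 and 3.70 in control and 4.33, 4.44 and 4.84 in Atg5f/f;Vav. The difference was 1.04 ± 0.17 (SE, n = 3 per group; limma adjusted p = 0.0149), or 2.05-fold. Its paralogs Mrps18a and Mrps18c, which descend from the same bacterial ribosome protein, rose by 0.74 and 0.75. The 3 paralogs could be read apart, since no probe of one shared more than 8 consecutive bases with a probe of another. Over all 6964 pairs of probes from different member genes, the longest shared run was 11 bases.

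A probe across a splice junction of Mrps18b, reading the spliced mRNA, gave -0.86, -0.97 and -0.69 in control and 0.19, 0.19 and 0.61 in Atg5f/f;Vav, a difference of 1.17. Junction probes of Mrps11 and Mrpl46, a small and a large subunit gene that start 42 bases apart on opposite strands, are shown with it. The capital letters of other sequences mark motifs, and none are marked here. The mm9 positions from the array annotation are chr17:36051313-36051461 (minus strand) for Mrps18b, chr7:85933622-85935544 (plus strand) for Mrps11 and chr7:85925493-85926340 (minus strand) for Mrpl46, each running from the first to the last base with the intron inside.
Mrps18b: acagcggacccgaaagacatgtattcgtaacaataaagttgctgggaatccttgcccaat
Mrps11: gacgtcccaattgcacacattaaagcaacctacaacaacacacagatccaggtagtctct
Mrpl46: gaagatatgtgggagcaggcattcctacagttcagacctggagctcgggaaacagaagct
Of the 15 probes that spanned a junction, 13 rose and 0 fell, with a median difference of 0.68, and the groups did not overlap in any of the 15. Over all 32074 tested probes, 17.3% were called higher and 17.1% lower, and 8693 were higher in Atg5f/f;Vav without overlap.

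Other small subunit genes followed. Mrps28 was at 3.21, 3.14 and 3.40 in control and 4.03, 4.07 and 4.38 in Atg5f/f;Vav, a difference of 0.91. Mrps22, mutated in an inherited mitochondrial translation disease, rose by 0.85, and Mrps7, whose bacterial counterpart organises the head of the small subunit, by 0.82. Mrps11, a protein of the platform where mRNA leaves, rose by 0.82. Mrps27, which carries pentatricopeptide repeats that bind RNA, rose by 0.72, Mrps34 by 0.69 and Mrps12, of the decoding centre, by 0.67. The smallest differences among those that rose were those of Mrps31 (0.45), Mrps33 (0.40) and Mrps6 (0.38).

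Both small subunit genes that did not pass lay near the threshold. Mrps21 had 3.96, 3.80 and 4.12 in control and 4.29, 4.30 and 4.52 in Atg5f/f;Vav (difference 0.41, adjusted p = 0.0508, limma). Of its 3 tested probes 1 was called higher, and their differences ran from 0.41 to 0.54. Mrps5, a protein at the mRNA entrance, had 1.23, 1.40 and 1.26 against 1.46, 1.83 and 1.89 (difference 0.43, adjusted p = 0.0587, limma). A dimmer Mrps5 probe of the same curated mRNA rose by 0.78. A further Mrps5 probe, of another transcript, was well above background only on control 1, at -2.76 against -6.59 to -7.00 on the other arrays, and was not tested.

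Most bright and most dim probes were higher in Atg5f/f;Vav. Of the 119 probes, 114 passed the filter on dim signal, and of these 92 were called higher, 2 lower and 20 did not pass. Over all 32074 tested probes, 17.3% were called higher and 17.1% lower. Of the 57 member probes above the median member signal, 52 rose and 0 fell (median 0.68), and of the 57 below it, 40 rose and 2 fell (median 0.60). A Mrpl27 probe, 1 of the 2 that fell, passed the filter through the control group, in which it is brighter. The 5 probes that failed the filter were of Mrpl23, Mrpl47, Mrpl52, Mrps18b and Mrps5, and each of these genes had another, tested probe.

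A division by source transcript, made after the values were seen, separated the probes further. Of 99 probes designed on curated RefSeq mRNAs, 90 rose and 0 fell, with a median difference of 0.67, and of the 45 dim ones 40 rose (median 0.63). Another 15 tested probes were designed on other transcripts, without a curated RefSeq mRNA accession. Of these 2 rose and 2 fell, with a median of -0.04, and of the 12 dim ones 0 rose and 2 fell. They include a Mrpl27 probe, 1 of the 2 that fell, and a Mrpl48 probe that passed the filter through the control group. Both are brighter in that group, so the filter favours lower values for them. Its part in this division was not tested. Across the 114 probes, with these Mrpl27 and Mrpl48 probes among them, signal and difference had a Pearson correlation of 0.53 and a Spearman correlation of 0.24. Across the 99 curated probes these were 0.04 and -0.04. Probes share arrays and, in part, genes, and these correlations are descriptions only.

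**Figure D3:**
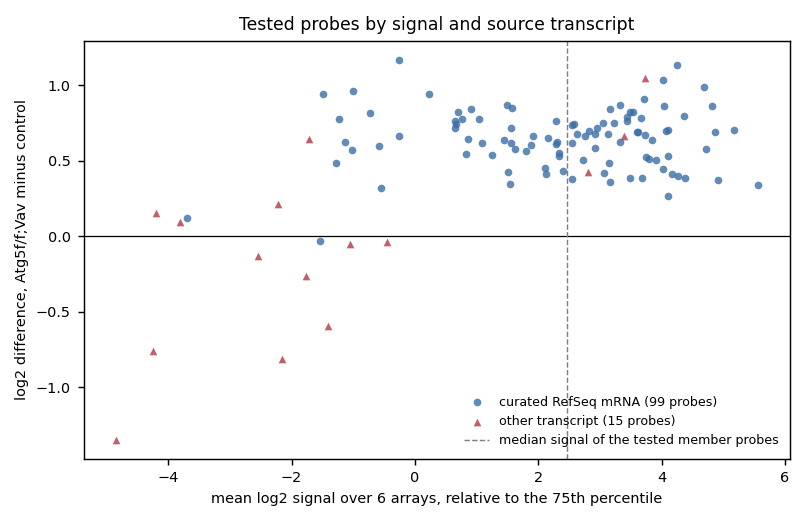
Log2 difference (Atg5f/f;Vav minus control) plotted against mean log2 signal over the 6 arrays for the 114 tested probes, with probes of curated RefSeq mRNAs as blue circles, probes of other transcripts as red triangles and the median signal of 2.47 as a dashed line. The 99 curated probes have a median of 0.67, and the 45 dim ones among them 0.63, and 12 of the 15 other probes lie left of the line.

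Several probes of the same gene could be compared in 28 genes. In the 14 genes with several tested probes, all of curated mRNAs, the median range between the highest and the lowest difference was 0.06 and 1 gene had probes of opposite sign. In the 14 genes with a probe of another transcript the median range was 0.62 and 7 had opposite signs. In the former set it was Mrps33, whose dimmest probe had a difference of -0.03, and in the latter they were Mrpl13, Mrpl24, Mrpl27, Mrpl47, Mrpl48, Mrps15 and Mrps18a. Only 3 of the 57 pairs of probes of the same gene shared 20 or more consecutive bases (1 pair each in Mrps18b, Mrps18c and Mrps21).

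Mrpl48 and Mrpl27 held the only member probes that were called lower. The curated Mrpl48 probe was at 3.53, 3.42 and 3.52 in control and 3.86, 3.87 and 3.91 in Atg5f/f;Vav, and rose by 0.39. A Mrpl48 probe of another transcript, well above background on all 6 arrays, was at -1.53, -1.67 and -2.06 in control and -2.38, -2.78 and -2.54 in Atg5f/f;Vav, a difference of -0.81 (adjusted p = 0.0197, limma). A second such Mrpl48 probe was well above background on all 3 control arrays and on 0 Atg5f/f;Vav arrays, and passed the filter through the control group. Its fitted difference of -1.35 did not pass (adjusted p = 0.0728, limma). The control mean was 1.33-fold that of Atg5f/f;Vav with each Atg5f/f;Vav array set no lower than the lowest signal of its probes well above background. That value leaves out the spread between replicates, and the filter favours this direction. Mrpl27, whose bacterial counterpart reaches into the peptidyl transferase centre, had a curated probe that rose by 0.49. Its probe of a cDNA clone was well above background on all 3 control arrays and on 1 Atg5f/f;Vav array, so that it passed the filter through the control group, in which it is brighter. It was at -4.01, -3.75 and -3.84 in control and -4.74, -4.66 and -4.47 in Atg5f/f;Vav, a difference of -0.76 (adjusted p = 0.0151, limma). The first 30 bases of the 4 probes that passed show that they read different stretches, at chr7:107697637-107697696 and chr7:107694484-107694543 (minus strand) for Mrpl48 and chr11:94521320-94521379 and chr11:94515618-94515677 (plus strand) for Mrpl27 in mm9.
Mrpl48, curated: agttaccacttcccataacaaaacctagga
Mrpl48, other: agtctggtctccttgatctttgtctcagct
Mrpl27, curated: ccatctataatctcttcttgtgtgtctgaa
Mrpl27, other: acacgtgagtaacttagttgtaatctcgaa
Whether these probes read the gene's mRNA, an intron or a neighbouring transcript was not tested, as no gene model of the mm9 build was used here.

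**Figure D4:**
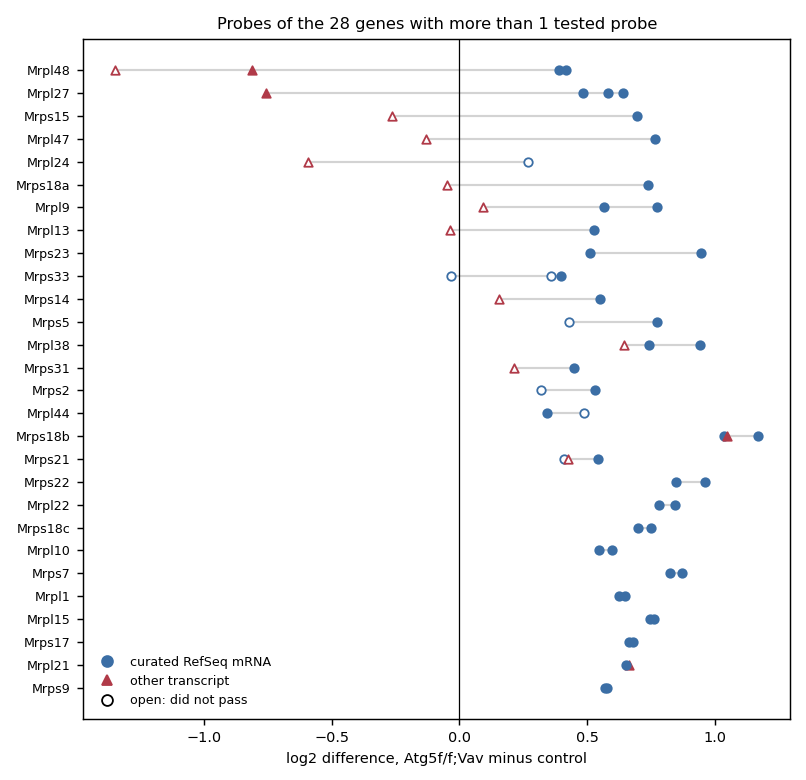
Log2 difference (Atg5f/f;Vav minus control) of every tested probe of the 28 genes with more than 1, ordered by the range within the gene, with curated mRNA probes as blue circles, probes of other transcripts as red triangles and probes that did not pass as empty symbols. The widest range is that of Mrpl48, at 1.77, or 1.23 without its probe that was below background in Atg5f/f;Vav, and among probes of curated mRNAs alone the widest is 0.43.

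The start sites of the members were compared with those of all genes in the RefSeq promoter table (GRCm38.p6), which gives 250 bases before and 50 after each start and holds 68 of the 77 genes. Many nuclear genes of mitochondrial proteins are known targets of NRF1, of the Ets factor GABP and of YY1. The NRF1 core GCGCATGC lay on either strand in 11.8% of member genes and 3.05% of all 27025 genes. The Ets core CCGGAAG was in 36.8% and 9.93%, and the YY1 motif GCCATCTT in 17.6% and 3.19%. The E-box CACGTG, in 7.35% and 8.09%, and CCAAT, in 39.7% and 41.1%, had shares in members close to those elsewhere. Member promoters were richer in G and C, with a median of 58.5% against 52.7% over all promoters, and their part in these shares was not tested. No motif contains another.

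Stretches of 30 bases around a match are given for the members with the greatest differences, 3 per motif, with every match to the 5 motifs in capitals, 5′ to 3′ on the strand of the gene. They show where the letters lie, and a match is not evidence of binding. For the NRF1 core these are chr17:35916645-35916674 (minus strand), chr11:58171620-58171649 (plus strand) and chr7:105811080-105811109 (minus strand) of GRCm38.p6, in genes with differences of 1.04, 0.78 and 0.67.
Mrps18b: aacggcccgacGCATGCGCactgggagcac
Mrpl22: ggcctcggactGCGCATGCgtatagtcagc
Mrpl17: gccgagttactGCGCATGCgtcctctgaga
For the Ets core they are chr17:35916391-35916420 (minus strand), chr6:125192099-125192128 (plus strand) and chr9:98601672-98601701 (minus strand), in genes with differences of 1.04, 0.87 and 0.85.
Mrps18b: tgtcccgaGCATGCGCagtcgctCTTCCGG
Mrpl51: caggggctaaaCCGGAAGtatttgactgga
Mrps22: aacctctcgagCCGGAAGttgctctatcga
The Mrps18b stretch also holds a second NRF1 core, which starts at base 29 after the start site, while the first lies at base -223.
For the YY1 motif they are chr13:73330968-73330997, chr11:115604147-115604176 and chr7:78783013-78783042 (all plus strand), in genes with differences of 0.87, 0.82 and 0.82.
Mrpl36: cgtgaccttacGCCATCTTtcttcctggcg
Mrps7: tgacagcggccAAGATGGCtgcccccgcgc
Mrps11: ctacgggcgccGCCATCTTtctgtcttccc
The median difference was 0.60 in genes with the NRF1 core and 0.67 in those without, 0.67 and 0.65 for the Ets core, and 0.70 and 0.64 for the YY1 motif.

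Many members share a start region with another gene. In 26 of the 68 genes (38.2%) a gene on the opposite strand began within 1000 bases upstream, against 12.2% of all genes in the table. All genes include those not expressed here, and the part of expression and of G and C content in this difference was not tested. The members' partners, examined after the members' values were known, numbered 24 outside the list. Of the 22 with a tested probe, 10 rose, 0 fell and 12 did not pass, and their median difference was 0.36. Among all tested RefSeq-named genes, 21.1% were called higher and 13.5% lower. Partners that rose included Tcp1, a subunit of the cytosolic chaperonin (0.93, beside Mrpl18 at 0.75), Ptcd2, a mitochondrial RNA-binding protein (0.79, beside Mrps27 at 0.72), and Psma2, a proteasome subunit (0.72, beside Mrpl32 at 0.63). Others had values on the opposite side of 0 without passing, such as Klc4, a kinesin light chain (-0.47, adjusted p = 0.0951 by limma, beside Mrpl2 at 0.80).

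Further genes of mitochondrial translation were taken from a list of 53, of which 47 were tested. Of these 25 rose and 0 fell, with a median difference of 0.46. The counts of this list and of those that follow stand beside 21.1% higher and 13.5% lower among all tested RefSeq-named genes. Without control 1 or control 2, when few probes passed on the whole array, 0 of the 47 passed by limma. An unadjusted p under 0.05 was held by 26 and 25 genes, but the share of all probes under it was not counted in these fits. The 6 ribosome proteins that bear other symbols all rose, with a median of 0.62, and 1 of the 6 passed after quantile normalisation. Among them Gadd45gip1, a large subunit protein, was at 3.08, 3.13 and 3.28 in control and 3.68, 3.91 and 4.28 in Atg5f/f;Vav (difference 0.79), Dap3, a GTP-binding small subunit protein, rose by 0.64, and Ict1, a peptidyl-tRNA hydrolase built into the large subunit, by 0.50.

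Translation factors and genes that act beside them were divided. Of 17 tested, 9 rose and 8 did not pass. Those that rose included Lrpprc (0.75) and Slirp (0.70), which bind mitochondrial mRNAs, and Letm1 (0.72), an ion exchanger of the inner membrane, which are not translation factors. Elongation factors were among the highest, with Tsfm at -0.72, -0.83 and -0.79 in control and 0.12, 0.04 and 0.40 in Atg5f/f;Vav (difference 0.97), Gfm1 higher by 0.97 and Tufm by 0.84. The initiation factor Mtif2 was at 6.46, 6.49 and 6.29 in control and 5.82, 6.17 and 6.09 in Atg5f/f;Vav, and its difference of -0.39 did not pass (adjusted p = 0.0619, limma). Of the 17 genes, 4 had a difference below 0, none of which passed, among them 2810006K23Rik (-0.30) and Guf1 (-0.13). Of 24 assembly and rRNA modification genes, 10 rose and 14 did not pass (median 0.32). Mpv17l2, a membrane protein needed for ribosome assembly, was higher by 1.03, Wbscr16 by 0.88 and the helicase Ddx28 by 0.78, while Noa1, a GTPase of small subunit assembly, had -0.17 and did not pass.

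**Figure D5:**
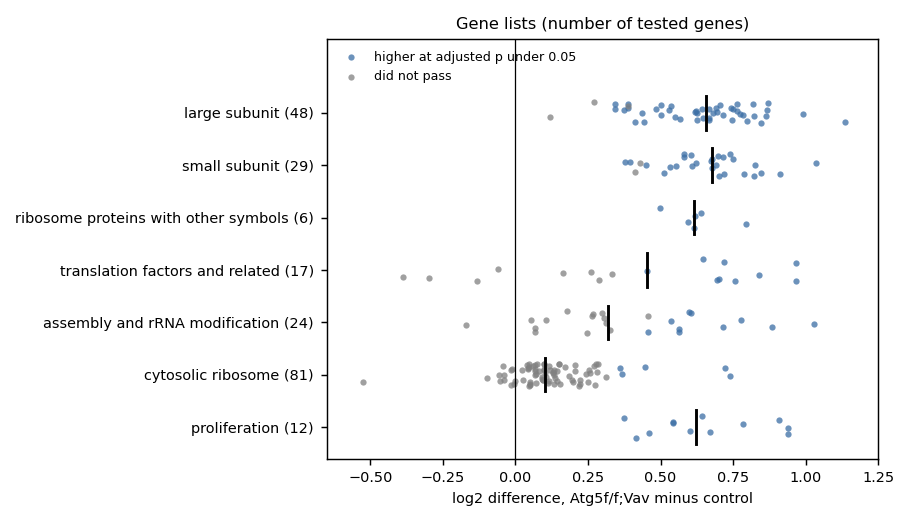
Log2 difference (Atg5f/f;Vav minus control) of each tested gene in the 2 member groups and in 5 other lists, with genes that passed at an adjusted p under 0.05 in blue, genes that did not in grey and the list median as a black bar. The member medians of 0.66 and 0.68 lie beside the 0.62 of the proliferation list, and the cytosolic ribosome is at 0.10.

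Proteins of the cytosolic ribosome, which translates nuclear mRNAs, gave other values on the same arrays. Of 81 genes, 5 rose and 0 fell, and the median difference was 0.10, which became -0.11 with scaling to probes detected on all arrays. Proliferation genes moved with the members: all 12 of 12 rose (median 0.62, with 4 passing after quantile normalisation), their array medians were 0.00, -0.16 and 0.15 in control and 0.58, 0.48 and 0.81 in Atg5f/f;Vav, and their summed linear signal was 231 to 276 and 345 to 413 times the 75th percentile. Their part in the members' result was not tested.

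Markers of other cells also differed between the groups. Of 8 erythroid markers, the early genes Car1 (3.80), Klf1 (2.95), Tfrc (2.15) and Epor (2.08) rose and Hbb-b1, Alas2 and Hba-a1 fell. The summed linear signal of the list was 220 to 498 in control and 76.6 to 119 in Atg5f/f;Vav, and Hba-a1 alone made up 64.9% to 96.4% of it on each array, so the sum describes mainly that probe. Of 7 neutrophil markers 2 rose and 4 fell, with sums of 174 to 276 and 216 to 269 of which Mpo or S100a9 was the greatest part, and of 4 tested stromal markers 3 fell, with sums of 2.81 to 30.9 and 0.984 to 1.59. Of 5 megakaryocyte markers 2 rose and 2 fell. Of 5 B cell markers 1 rose (Cd79a) and 4 did not pass, and 2 of the 5 had a difference below 0. Cd79a was dim, at -4.99, -5.53 and -4.65 in control and -3.95, -4.15 and -4.20 in Atg5f/f;Vav. It may have passed the filter through the Atg5f/f;Vav group, in which it is brighter, and the filter would then favour higher values for it. Of 4 macrophage and 4 T and NK cell markers 0 passed by limma. The part of cell composition in the members' result was not tested.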

How the data were processed

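LSK cells were sorted into TRIzol, and their RNA was labelled with Cy3 by low input amplification and hybridised to 6 one-colour Agilent arrays on 1 slide (scan 1). The authors deposited Agilent Feature Extraction 12.0.3.1 files, whose processed signal is a background-subtracted intensity on a linear scale, together with spot flags. Their deposited table holds the same signal divided by 1 constant per array (constant to within 0.000267%), which lay within 0.0417% of the 75th percentile of all 62976 spots on that array. The arrays carry 59305 non-control spots, of which 64 to 81 per array were left out as outliers.

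Here log2 processed intensity was centred on the 75th percentile of non-control spots, spots of a probe were averaged, and the test was limited to the 32074 probes that Feature Extraction marked as well above background on 3 or more of the 6 arrays. The comparison used limma version 3.58.1 under R version 4.3.3 (linear model with empirical Bayes variances, no covariates, Benjamini-Hochberg over all tested probes, threshold 0.05). The methods name no test for single genes of the arrays, and their general t-test was run as an alternative. The number of arrays limits the precision. The fit was tested on simulated data with noise drawn independently for each probe and array. Spread shared across genes, as seen here, was not simulated. Positions are mm9 for probes and GRCm38.p6 (RefSeq) for promoters. Named genes were, in each subunit, the 5 largest and 5 smallest differences, genes with probes of opposite sign, the Mrps18 paralogs and genes with a described role; from the other pathway lists at most 3 genes each way. The members and lists were chosen with earlier results of these data known, and the division by source transcript and the partner genes after the members' values were seen.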

Additional observations from a re-analysis of the deposited data

How the results depend on the processing

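Quantile normalisation gave 44 member genes higher in place of 72, 1 member probe lower, medians of 0.41 (members), 0.42 (large), 0.40 (small) and 0.26 (translation list), differences of 0.015 (large minus small) and -0.10 (bright minus dim), and 1 translation list gene lower. It reversed Mrpl33 (-0.0025, adjusted p = 0.985, limma). Scaling to the 75th percentile of probes detected on all arrays gave 55 member genes, medians of 0.46, 0.45, 0.47 and 0.25 in the same order and 2 translation genes lower. It shifted all probes by -0.21. Relative to the median of all probes the members stood at 0.73, which this scaling leaves as it is by construction, and at 0.43 after quantile normalisation. With the detected-probe scaling, 3371 probes of the whole array were called higher and 10088 lower, against 5540 and 5484 as analysed. All 77 differences were above 0 as analysed, 75 under quantile normalisation or when a gene's probes were averaged, and 76 under normexp or the detected-probe scaling.

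Without a filter on dim probes 32 member genes, 46 member probes and 12 translation genes were higher. The methods' t-test called 0 genes, 0 probes and 0 translation genes after adjustment in either direction, with 76 genes under an unadjusted p of 0.05, and 2 translation genes lower unadjusted. Over the whole array it called 7256 probes higher and 6285 lower unadjusted. One translation gene was lower under normexp, an intensity trend or averaged probes (1 each), and averaging moved the translation median to 0.35 and reversed Mrpl48 (-0.34, adjusted p = 0.0946, limma). Large minus small was -0.038 under normexp and -0.033 with averaged probes. Among curated probes only, an alternative chosen after seeing the data, 90 were higher and 0 lower.

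With each array left out, 0 to 66 member genes, 0 to 87 member probes and 0 to 24 translation genes were higher, and 0 to 3 member probes lower. Medians ran from 0.55 to 0.72 (members), 0.55 to 0.71 (large), 0.55 to 0.75 (small) and 0.40 to 0.54 (translation list), large minus small from -0.057 to 0.0046 and bright minus dim from 0.03 to 0.11. The counts of 0 came without control 1 and without control 2, when few probes passed on the whole array.

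The replicate block, in which replicate number is also slide column, gave 71 member genes and 92 member probes higher. Deviations of same-numbered arrays from their group means had correlations of -0.07, 0.19 and 0.11, and those of differently numbered arrays ran from -0.30 to 0.13. Whether the numbers pair the samples cannot be told from so few values. Slide and scan hold all 6 arrays and could not be fitted as a block. Over 18 alternatives and 37 named genes, 481 of 666 values were counted as unchanged, 168 lost the call, 15 gained it and 2 reversed. A change of sign was counted as reversed only where the gene passed as analysed or under the alternative. Where it passed under neither, a change of sign was counted as unchanged. What caused these dependences was not tested.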
